A study of Mus musculus with 4 samples.

Results

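Among 15793 lung barcodes that passed the filter (of 16350 deposited), 1078 held transcripts of endothelial cells and of alveolar fibroblasts at once. They were chosen by a count of unique molecular identifiers (UMIs, which count RNA molecules): at least 1 UMI of Cdh5, at least 1 of Cldn5, at least 2 of Inmt and at least 2 of Pdgfra and Npnt together, after barcodes below 300 genes or above 10% mitochondrial UMIs had been set aside. Cdh5 (mm10, chromosome 8, 104101625 to 104144511, plus strand) encodes VE-cadherin and Cldn5 (chromosome 16, 18776847 to 18778262, plus strand) claudin-5, both proteins of endothelial junctions. Inmt (chromosome 6, 55170626 to 55175043, minus strand) encodes a methyltransferase, Pdgfra (chromosome 5, 75152292 to 75198215, plus strand) a receptor for platelet-derived growth factor, and Npnt (chromosome 3, 132881745 to 132950291, minus strand) the matrix protein nephronectin, all 3 known from alveolar fibroblasts. These 5 genes made the set, so their levels, and all gene levels of the set against either lineage, are descriptions without a test. They are set beside 1242 barcodes that passed the endothelial part with 0 UMIs of the fibroblast genes (endothelial alone) and 3155 that passed the fibroblast part with 0 UMIs of Cdh5 and Cldn5 (fibroblast alone). A further 1019 barcodes held other mixes of these genes.

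The lungs came from wild-type (WT) mice and from mice without the collagen receptor LAIR1 (LAIR1KO), with no tumor (normal) or with B16/F10, a mouse melanoma line (tumor-bearing). Sex, age and strain are not given in the labels. Each of the 4 groups was 1 droplet library in which the cells of 3 mice carried different hashtag antibodies, so library and group cannot be told apart. By transcripts of the set the WT normal mice were male (335 UMIs of Ddx3y, 0 of Xist) and those of the other libraries female (813, 10948 and 1254 UMIs of Xist, 0 of Ddx3y). Values given as a series of 4 follow the order WT normal, WT tumor-bearing, LAIR1KO normal, LAIR1KO tumor-bearing. The libraries held 25216301 to 28034709 gene UMIs, and filtered barcodes had medians of 4828 to 7187 UMIs. Across libraries 27 filtered barcode sequences were shared. Of these, 0 were in the set in both libraries, and a few were in the set in 1 library only. Lair1, the deleted gene, was too rare in the set to check the genotype there, with 1, 3, 1 and 0 UMIs. Fibroblast barcodes alone held 30, 19, 0 and 0 UMIs of it and endothelial barcodes alone 4, 8, 1 and 0.

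In the wall of the alveolus, capillary endothelium and alveolar fibroblasts lie against the flat type 1 epithelium, with pericytes wrapped around the capillaries. Cadherins and claudins hold endothelial cells together, and the fibroblasts make collagens, elastin and other matrix and signal to their neighbours. A droplet barcode normally marks 1 cell, yet 2 or more cells that enter a droplet, attached or by chance, share a barcode. Hashtag antibodies, put on the cells of each mouse before pooling, mark droplets with cells of different mice but not those with cells of the same mouse.

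The set was most frequent in LAIR1KO normal lung. It held 123 of 3100 barcodes in WT normal lung, or 3.97% (95% Clopper-Pearson interval 3.31 to 4.72, which covers counting error only, as do all such intervals here). In WT tumor-bearing lung it held 65 of 4291 (1.51%, 1.17 to 1.93), in LAIR1KO normal lung 804 of 3816 (21.1%, 19.8 to 22.4) and in LAIR1KO tumor-bearing lung 86 of 4586 (1.88%, 1.5 to 2.31). Thus 804 of the 1078 barcodes came from 1 library. In LAIR1KO normal lung 52.8% of barcodes passing the endothelial part also passed the fibroblast part, against 26.0, 12.6 and 15.9% in WT normal, WT tumor-bearing and LAIR1KO tumor-bearing lung. Of those passing the fibroblast part, 64.4% also passed the endothelial part there, against 13.8, 6.08 and 6.58%.

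Most members lay above the edge of the rule. Of the 1078, 922 exceeded every threshold, by library 95 of 123, 48 of 65, 710 of 804 and 69 of 86. Among all members 69 had a single UMI of Cdh5 or of Cldn5, 32 had 2 UMIs of Inmt and 67 had 2 of Pdgfra and Npnt. Just outside, 73 barcodes missed by having 1 UMI of Inmt, 87 by having 1 of Pdgfra and Npnt, 110 by having 0 of Cdh5 and 174 by having 0 of Cldn5. Median Cdh5 per member was 14, 15, 14 and 14 UMIs, and 13, 9, 15 and 7 in endothelial barcodes alone. Median Inmt was 23, 13, 24 and 15 UMIs, and 48, 26, 29 and 26 in fibroblast barcodes alone. Members thus held about as much Cdh5 as an endothelial barcode or more, and less Inmt than a fibroblast barcode. When each barcode was thinned to 3000 UMIs and shallower ones were left out (805, 1136, 1018 and 1455), the share of members was 2.53, 1.14, 18.5 and 1.25%, against 5.32, 1.93, 28.3 and 2.65% of the same barcodes unthinned.

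The genes of the 2 lineages that took no part in the rule were present together. The median member held 96, 74, 88.5 and 88 UMIs of 18 endothelial genes, where endothelial barcodes alone held 80, 51, 90 and 45 and fibroblast barcodes alone 2, 1, 2 and 1. It held 40, 32, 38 and 35 UMIs of 12 alveolar fibroblast genes, where fibroblast barcodes alone held 42, 34, 34 and 27 and endothelial barcodes alone 6, 5, 7.5 and 4. For these 2 lists the median member was therefore near a barcode of that lineage, or above it. That did not hold for all fibroblast genes. On average a member held 82.0, 65.3, 62.5 and 64.2 UMIs of 14 interstitial matrix genes. The sum of the averages of both lineages alone was 170, 161, 174 and 130. Members that reached the lower quartile of both lineages alone, each for its own genes, numbered 64 of 123, 35 of 65, 461 of 804 and 63 of 86.

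**Figure D1:**
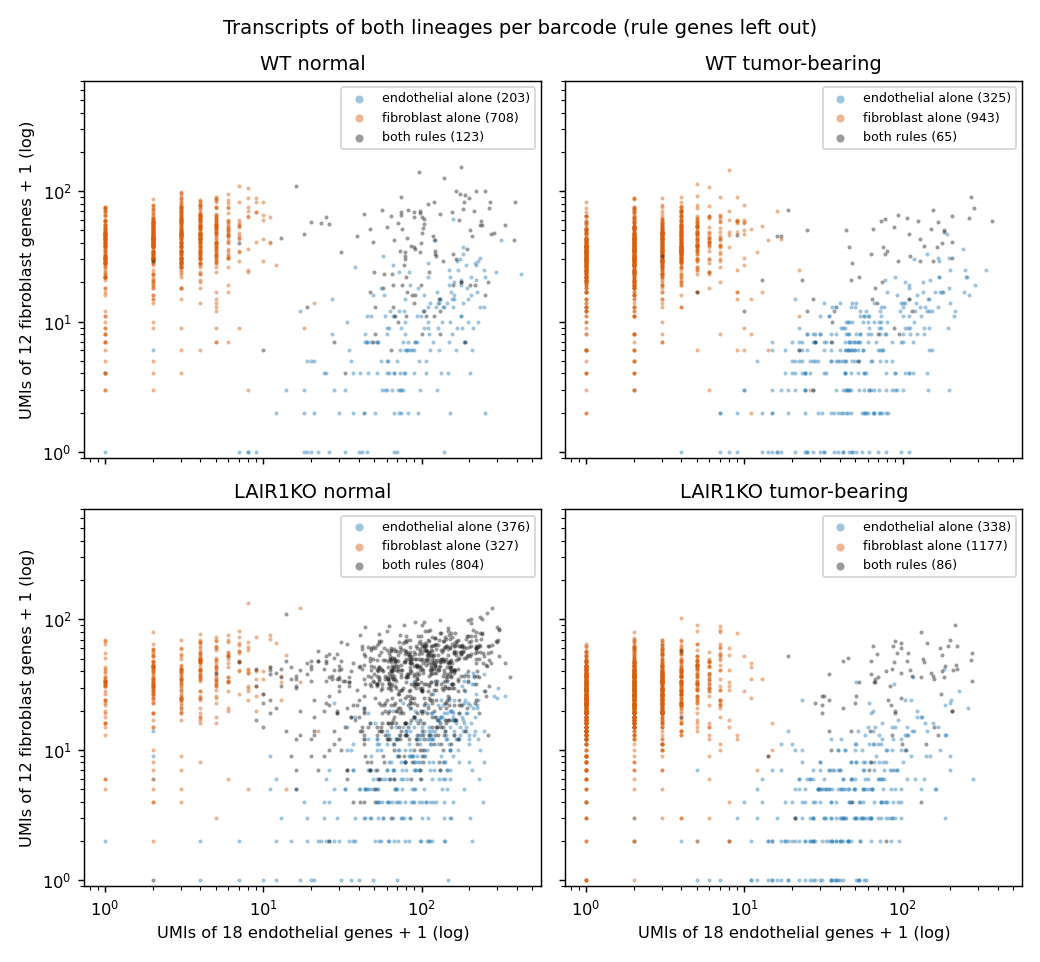
UMIs per barcode (plus 1, log axes) of 18 endothelial genes (horizontal) and 12 alveolar fibroblast genes (vertical), without the 5 genes of the rule, in the 4 libraries. Each point is a barcode. Members (dark) lie to the right of fibroblast barcodes alone and mostly above endothelial barcodes alone, and 804 of the 1078 are in the LAIR1KO normal panel.

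Members were deeper than either lineage alone. Their median was 13431, 9354, 10929.5 and 11731.5 UMIs per barcode. Endothelial barcodes alone had medians of 5899, 3675, 6730.5 and 3098.5 UMIs and fibroblast barcodes alone 9530, 7506, 8238 and 6047. Members reached 87.1, 83.7, 73.0 and 128% of the sum of both medians, and so passed it in LAIR1KO tumor-bearing lung and fell short in the other 3 libraries. They held 4184, 3464, 3824 and 3995.5 detected genes at the median. Deeper barcodes pass a rule on 5 genes more often, so the depth is in part set by the rule.

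**Figure D2:**
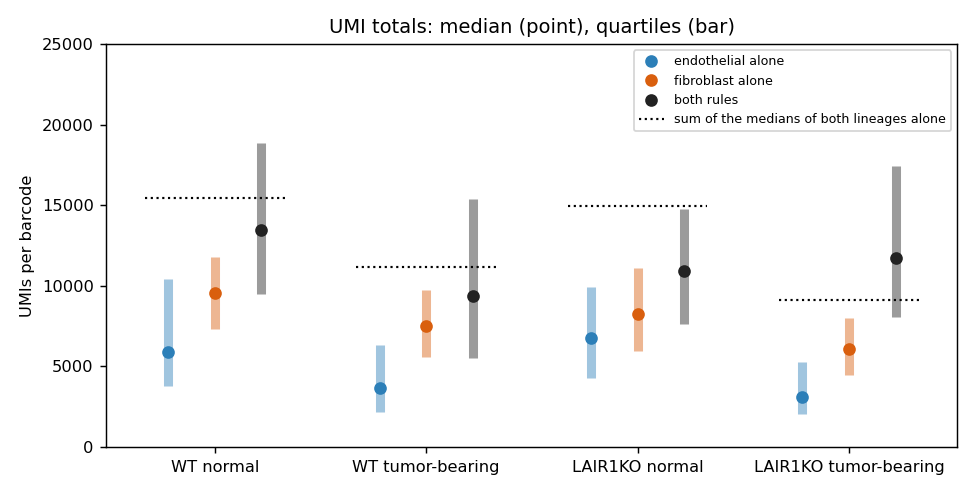
UMIs per barcode by library for endothelial barcodes alone, fibroblast barcodes alone and barcodes that pass both rules. Points are medians, bars run from the lower to the upper quartile, and dotted lines give the sum of the medians of both lineages alone; only in LAIR1KO tumor-bearing lung does the median of both rules (11731.5) lie above that line.

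On the scale of UMIs per 10000 UMIs, most genes that part the lineages lay between them. Over 10231 genes with at least 50 UMIs in each library across the 3 classes, 2589 differed at least 2-fold between endothelial and fibroblast barcodes in all 4 libraries. Of these, 2135 (82.5%) had a level in members between the 2 in all 4 libraries, against 3362 of all 10231 (32.9%). Members stood above both lineages in every library for 424 genes and below both for 160, and by at least 1.5-fold for 17 and 6.

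Endothelial genes were all there. All 18 measured endothelial genes had intermediate levels in all 4 libraries, and their sum was 75.7 to 85.2 UMIs per 10000 in members, 131 to 143 in endothelial and 2.24 to 3.40 in fibroblast barcodes alone. Calcrl, a receptor subunit for adrenomedullin, stood at 12.1, 13.8, 14.2 and 12.7 UMIs per 10000 in members and 21.9, 24.1, 22.5 and 21.0 in endothelial barcodes. Ptprb, the endothelial phosphatase VE-PTP, stood at 9.29, 7.34, 10.54 and 8.74 against 16.7, 17, 17.4 and 15.2. Of 10 genes of general capillaries, 9 were intermediate: Hpgd, which breaks down prostaglandins, had 10.6, 12.5, 13.2 and 10.2 UMIs per 10000, and Sema3c, a semaphorin, 8.24, 9.65, 9.35 and 7.46. Vwf, the von Willebrand factor of larger vessels, was at 1.02, 1.07, 1.15 and 1.08 in members against 7.0, 6.96, 5.77 and 5.06 in endothelial barcodes alone. Vwf thus stood further below the endothelial level than the 4 genes named before it. Car4, which marks the aerocyte capillary type, stood at 2.38, 3.21, 2.37 and 2.43 against 4.86, 4.54, 4.37 and 4.36.

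Fibroblast genes fell into groups of unequal share. With endothelial barcodes set at 0% and fibroblast barcodes at 100%, the sum of 12 alveolar fibroblast genes lay at 53.6, 51.4, 70.0 and 39.0% in members. Limch1, a cytoskeletal regulator, had 8.19, 8.12, 9.0 and 6.98 UMIs per 10000 in members and 14.5, 15, 15.1 and 14.5 in fibroblast barcodes. Itga8, the integrin that binds nephronectin, had 3.15, 2.78, 3.67 and 2.33 against 6.18, 6.49, 5.54 and 6.39. One gene of that list, the sodium channel gene Scn7a, was higher in endothelial (10.1 to 12.2) than in fibroblast barcodes (3.40 to 4.09). The sum of 14 interstitial matrix genes lay at 30.4, 26.9, 26.1 and 21.5% on the same scale, lower than the alveolar list in each library, although all 14 were intermediate. Col1a1, a chain of type I collagen, stood at 4.17, 4.20, 3.79 and 3.64 UMIs per 10000 in members and 17.4, 19.5, 19.1 and 19.7 in fibroblast barcodes. Col3a1, type III collagen, stood at 5.75, 5.48, 4.27 and 4.02 against 22.6, 24.2, 24.3 and 22.9. Mfap4, a protein of elastic fibres in the same list, kept more, at 8.40, 11.5, 12.2 and 8.58 against 16, 21.9, 19.6 and 23.8.

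A list of 10 genes of activated fibroblasts lay lower still. It holds cytokine and chemokine genes (Il6, Lif, Cxcl1, Ccl2 and Cxcl12), enzymes (Has1, Mmp3 and Ptgs2), the protease inhibitor Timp1 and the acute-phase protein Saa3. Of these, 7 were intermediate in all 4 libraries, and Cxcl12 was higher in endothelial (2.87 to 4.18 UMIs per 10000) than in fibroblast barcodes (1.39 to 2.39). The sum of the 10 lay at 19.0, 6.62, 5.63 and 16.7% between the lineages. Il6, an inflammatory cytokine, stood at 4.48, 3.05, 1.38 and 3.81 UMIs per 10000 in members and 19.2, 20.2, 15 and 21.7 in fibroblast barcodes alone. Cxcl1, which attracts neutrophils, stood at 5.11, 3.20, 1.61 and 5.69 against 22.5, 19.9, 19.0 and 23.7. Both were lowest in members of LAIR1KO normal lung. Over all genes at least 4-fold higher in fibroblast than in endothelial barcodes (436 to 474 per library), the median position was 34.0, 31.8, 34.6 and 29.1%, so the alveolar list lay above and the list of activated fibroblasts below that median in every library. The basement membrane genes, 12 in number, stood at 23.3 to 29.3 UMIs per 10000 in members, 16.5 to 18.2 in endothelial and 39.2 to 42.1 in fibroblast barcodes.

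Ligands and receptors that pass signals between the 2 lineages were both present in the summed RNA of members. Of 24 such genes, 19 were intermediate and 2 above both lineages. Edn1, the peptide endothelin-1, stood at 2.20, 1.48, 2.04 and 2.39 UMIs per 10000 in members and at 3.08 to 3.78 in endothelial barcodes, while Ednra, its receptor on fibroblasts, stood at 0.659, 0.728, 0.922 and 0.530 in members and at 1.52 to 1.76 in fibroblast barcodes. Angpt1, the angiopoietin that activates the endothelial receptor Tek, stood at 1.10, 0.782, 1.39 and 1.02, and Tek at 2.73, 2.89, 3.54 and 2.83. The gene above both for which the level was highest was Vegfa, the vascular growth factor, at 6.08, 9.59, 6.51 and 6.47 in members against 4.63 to 5.91 in endothelial and 2.02 to 3.34 in fibroblast barcodes. Genes known from the change of endothelial into mesenchymal cells were mixed. Of 8 with enough UMIs, 6 were intermediate in all 4 libraries. The transcription factor gene Snai1 stood at 0.281, 0.310, 0.298 and 0.336 in members, 0.0866 to 0.138 in endothelial and 0.469 to 0.730 in fibroblast barcodes. Zeb1, another such factor, was instead highest in endothelial barcodes. The sum of all 11 was 12.9 to 14 in members, 12.9 to 14 in endothelial and 15.4 to 18.7 in fibroblast barcodes, of which Vim, the filament protein vimentin, gave 6.0 to 7.67 in members.

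Of the 424 genes above both lineages, the 10 with the highest ratio to the higher lineage, in their least favourable library, are named. Among them Cox4i2 and Gucy1b1 are known from pericytes. Cox4i2, a subunit of the respiratory chain, stood at 0.486, 0.580, 0.506 and 0.891 UMIs per 10000 in members (90, 43, 480 and 106 UMIs), at 0.0799 to 0.154 in endothelial and at 0.00431 to 0.0172 in fibroblast barcodes. Of the others, 5 (Akap5, Rtkn2, Igfbp2, Clic3 and Col4a3) are known from type 1 epithelium. Igfbp2, a binding protein of insulin-like growth factors, stood at 0.735, 2.23, 0.661 and 0.748 in members, 0.0333 to 0.192 in endothelial and 0.0322 to 0.362 in fibroblast barcodes. Pcdh18, Pdzd2 and Myh14 completed the 10.

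Lists of these cells, written after those genes had been seen, are given as levels only. The sum of 11 type 1 genes, among them Ager and Aqp5, was 16.3, 31.4, 13.3 and 14.3 UMIs per 10000 in members, 2.45 to 4.79 in endothelial, 2.64 to 10.3 in fibroblast and 0.784 to 1.61 in macrophage or neutrophil barcodes, which should lack them. The highest value of fibroblast barcodes was that of LAIR1KO normal lung. The sum of 10 pericyte genes was 2.60, 3.53, 3.82 and 5.85 in members, 0.788 to 0.879 in endothelial, 0.907 to 1.12 in fibroblast and 0.0425 to 0.0851 in macrophage or neutrophil barcodes. An earlier list of 12 pericyte and smooth muscle genes differed less, at 2.90, 3.82, 4.16 and 5.65 in members. It stood at 0.786, 0.718, 0.972 and 3.11 in endothelial and 2.06, 2.22, 2.50 and 3.08 in fibroblast barcodes. Of its 6 genes with enough UMIs, 3 were above both lineages in every library. A minority of members carried most of the RNA of the added type 1 and pericyte lists. The 10% of members richest in type 1 UMIs held 70.9, 72.4, 77.0 and 77.0% of them, and 24.4 to 40.0% of members had 0. For pericyte UMIs the richest 10% held 75.5, 89.3, 77.8 and 80.0%, and 32.5 to 56.9% of members had 0. The endothelial genes were spread more evenly, with 23.3 to 25.9% in the richest 10%.

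At a common depth of 3000 UMIs, at least 3 type 1 UMIs were found in 27.9, 27.9, 24.3 and 24.1% of members, in 11.4, 10.2, 16.5 and 10.8% of endothelial, in 8.04, 6.46, 15.5 and 10.4% of fibroblast and in 1.22 to 2.46% of macrophage or neutrophil barcodes. Unthinned, the shares in members were 54.5, 35.4, 41.9 and 45.3%. At least 3 pericyte UMIs were rarer at that depth, in 3.28, 4.92, 7.06 and 13.3% of members and in 2.40, 1.60, 2.13 and 2.84% of endothelial barcodes. In WT normal lung the interval of the members' share (0.900 to 8.18%) covered the endothelial share. Barcodes that also passed a rule for type 2 epithelium, the surfactant-making cell (Lamp3, Slc34a2 and Sftpb), made up 14.6, 12.3, 7.96 and 11.6% of members, 5.42, 1.23, 1.60 and 1.18% of endothelial and 1.69, 1.80, 7.03 and 1.02% of fibroblast barcodes alone. Of all filtered barcodes 13.8, 13.7, 6.66 and 6.54% passed that rule. Sftpc, the surfactant protein C of type 2 cells, stood at 173, 110, 89.99 and 42.6 UMIs per 10000 in members and at 21.2, 29.1, 8.56 and 8.58 in macrophage or neutrophil barcodes. Barcodes of either lineage alone also held such RNA. A list of 10 alveolar epithelium genes summed to 233, 173, 129 and 74.4 in members and 175, 54.4, 53.6 and 55.0 in endothelial barcodes. In fibroblast barcodes it summed to 42.9, 38.2, 144 and 31.1, above members in LAIR1KO normal lung. The part of free RNA, which enters droplets of any cell, in these shares was not tested.

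**Figure D3:**
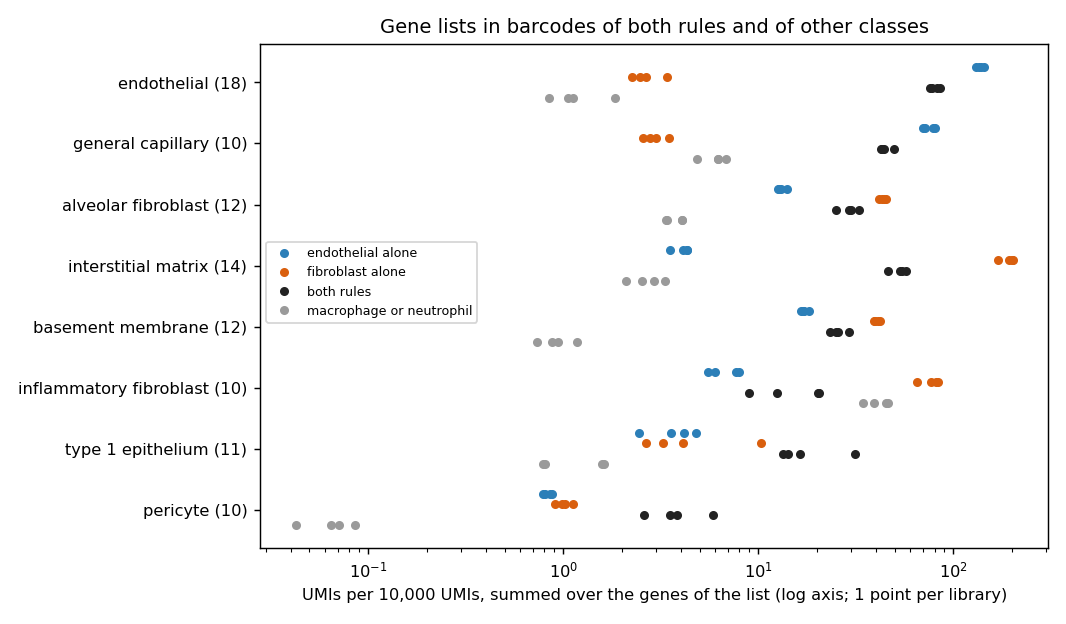
Level of 8 gene lists (UMIs per 10000 UMIs summed over the genes, log axis; number of genes in brackets) in barcodes of both rules, of either lineage alone and of macrophages or neutrophils. Each point is 1 library. Barcodes of both rules lie between the lineages for endothelial, capillary and fibroblast lists and above both for type 1 epithelium (13.3 to 31.4) and pericytes (2.60 to 5.85). The type 1 and pericyte lists were written after genes of members had been seen.

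The rules for macrophages and neutrophils were seldom passed by members, as by barcodes of either lineage alone. The macrophage rule (C1qa, C1qb and Csf1r) was passed by 0, 1, 8 and 3 members and the neutrophil rule (Csf3r, Cxcr2 and S100a9) by 3, 1, 14 and 4. For macrophages that is 0, 1.54, 0.995 and 3.49% of members, 0 to 2.07% of endothelial and 1.02 to 2.23% of fibroblast barcodes alone. Of all filtered barcodes 13.7, 20.5, 14.8 and 19.8% passed it. For neutrophils it is 2.44, 1.54, 1.74 and 4.65% of members, 3.38 to 5.62% of endothelial and 0.917 to 1.44% of fibroblast barcodes. Of all filtered barcodes 20.7, 13.0, 20.4 and 15.8% passed the neutrophil rule. For the endothelial and fibroblast rules, the number of barcodes passing both was 0.903, 0.505, 1.61 and 0.558 times the product of their shares. For endothelial and macrophage rules the ratio was 0.0617 to 0.121 and for fibroblast and macrophage rules 0.0618 to 0.110. With neutrophils the ratio was 0.122 to 0.304 for the endothelial and 0.0704 to 0.116 for the fibroblast rule. Lymphocytes were few, and their ratios with the endothelial rule reached those of fibroblasts: 0.778 to 1.47 for T cells (3 to 10 barcodes per library) and 0.229 to 1.56 for B cells (1 to 15 barcodes). The pair of endothelial and type 2 epithelium rules reached 0.481 to 0.927 and that of fibroblast and type 2 epithelium rules 0.212 to 1.32. In each library the endothelial and fibroblast ratio was above that of either with the macrophage rule. Barcodes passing both are the set itself, so this is a description without a test. At a common depth of 3000 UMIs the endothelial and fibroblast ratio was 0.464, 0.379, 1.16 and 0.357. At that depth it was 0 to 0.0672 for endothelial and macrophage rules and 0.0259 to 0.0624 for fibroblast and macrophage rules.

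The 10 genes lowest against both lineages were Fgl2, Foxc1, Pde2a, Igfbp4, Folr2, Fndc1, Rnd1, Lrrc32, Nfatc1 and Plekho2. Fgl2, a fibrinogen-like protein, stood at 0.356, 0.202, 0.123 and 0.319 UMIs per 10000 in members, 0.620 to 1.12 in endothelial and 0.779 to 1.77 in fibroblast barcodes. Igfbp4, another binding protein of insulin-like growth factors, stood at 1.85, 1.97, 1.72 and 1.61 against 2.87 to 3.54 and 3.04 to 4.69. Folr2 and Foxc1 rest on few UMIs in members (0 to 18 per library).

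Hashtags were not used by the rule and can be tested. By HTODemux, which calls a hashtag positive above a background fitted to each antibody, 2 hashtags were called in 52.0% (42.8 to 61.1), 30.8% (19.9 to 43.4), 31.0% (27.8 to 34.3) and 58.1% (47.0 to 68.7) of members. In endothelial barcodes alone the shares were 30.0, 18.5, 39.6 and 20.1%, and in fibroblast barcodes alone 4.10, 3.50, 2.45 and 2.12%. The members' share exceeded that of endothelial barcodes in 3 of 4 libraries, by 15.9 percentage points on average (SD 19.5), and was lower in LAIR1KO normal lung. That difference did not pass the exact sign-flip permutation test over the 4 libraries (two-sided p = 0.25, adjusted p = 0.5 over 4 tests). Against fibroblast barcodes the difference was 39.9 points, in the same direction in 4 of 4 libraries, with p = 0.13, the smallest this exact permutation test can give for 4 libraries (adjusted p = 0.5). With k-means as the clustering step of HTODemux, chosen after seeing the data, the share in LAIR1KO normal lung was 10.2% in place of 31.0% in members and 6.65% in place of 39.6% in endothelial barcodes. Members then exceeded endothelial barcodes in 4 of 4 libraries, by 18.1 points on average (exact sign-flip permutation p = 0.13, adjusted p = 0.25). An endothelial and a fibroblast barcode drawn from a library would come from different mice in 66.3, 68.5, 81.7 and 69.2% of cases by HTODemux and in 66.2, 62.6, 57.5 and 64.2% by the margin rule described next. In LAIR1KO normal mouse 1 HTODemux assigned 13 fibroblast barcodes alone, and the margin rule 128.

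The classes differed in their number of hashtag UMIs. Members held a median of 1899, 863, 944 and 890 hashtag UMIs, endothelial barcodes alone 958, 464, 811.5 and 296.5, and fibroblast barcodes alone 76.5, 54, 75 and 41. HTODemux gave no hashtag to 53.1, 61.0, 62.1 and 64.6% of fibroblast barcodes. A fibroblast barcode held 7.39, 10.4, 8.46 and 12.1% of the summed hashtag medians of both lineages, so the hashtag of a fibroblast from another mouse would be a small part of a joint droplet's. The share of hashtag UMIs outside the top hashtag had medians of 6.17, 7.46, 9.67 and 16.3% in members, 6.41, 7.38, 11 and 13% in endothelial and 7.95, 11, 12.1 and 12.5% in fibroblast barcodes. It differed from endothelial barcodes by 0.437 points (SD 1.97; exact sign-flip permutation p = 0.875) and from fibroblast barcodes by -0.998 (SD 3.26; exact p = 0.625), within the spread between libraries.

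Calls by the margin rule, where 1 hashtag of at least 10 UMIs exceeds the next 3-fold, gave another picture. By that rule 93.5, 96.9, 91.9 and 86.0% of members had a single hashtag and 6.50, 3.08, 8.08 and 11.6% had 2, beside 5.42, 8.0, 5.05 and 10.9% of endothelial barcodes. The difference of members from endothelial barcodes was then near 0, at -0.031 points on average (SD 3.42, exact p = 1). Members were higher in 3 of 4 libraries and lower in WT tumor-bearing lung. Within 5000 to 20000 UMIs, with HTODemux, the difference was -1.99 points (SD 11.7, exact p = 0.625). The second hashtag was also compared by mouse, only among barcodes with a single hashtag by the margin rule, which leaves out those with 2. In LAIR1KO normal lung it had medians of 53, 29 and 44 UMIs in members and 63, 20 and 42 in endothelial barcodes alone. In the 3 mice of WT normal lung it had medians of 78.5, 58 and 92.5 in members and 46.5, 40 and 42.5 in endothelial barcodes. The medians were 44, 44 and 39 against 23, 18 and 29 in WT tumor-bearing lung. They were 111.5, 56.5 and 36 against 15.5, 15 and 12 in LAIR1KO tumor-bearing lung. These second-hashtag counts are not scaled to the hashtag total. The top hashtag had medians of 816.5, 2482 and 1712.5 in members and 502.5, 1234 and 965 in endothelial barcodes in WT normal lung. It had 510.5, 1644 and 520 against 265, 659 and 204 in WT tumor-bearing lung. In LAIR1KO normal lung it had 645, 1216 and 796 against 689, 839.5 and 401. The values were 834, 715.5 and 1326 against 145.5, 201 and 412 in LAIR1KO tumor-bearing lung.

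**Figure D4:**
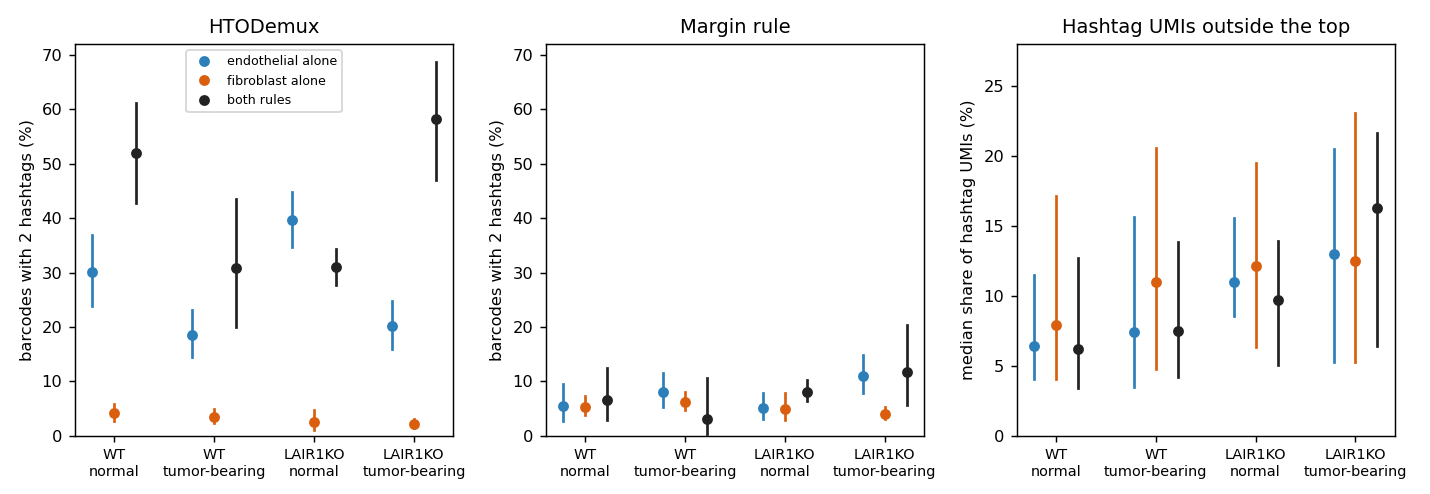
Hashtag mixing by library in endothelial barcodes alone, fibroblast barcodes alone and barcodes of both rules. Left and middle: share of barcodes with 2 hashtags by HTODemux and by the margin rule, with 95% Clopper-Pearson intervals; right: median and quartiles of the share of hashtag UMIs outside the top hashtag. By HTODemux barcodes of both rules reach 30.8 to 58.1%, by the margin rule 3.08 to 11.6%.

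Members with 1 and with 2 hashtags both held the genes of both lineages, at different depths. By HTODemux those with a single hashtag had medians of 10523.5, 7961, 10062 and 9620 UMIs and those with 2 had 17189.5, 13431.5, 14076 and 16403.5. The sum of endothelial genes was 86.8, 84.9, 83.2 and 76.7 UMIs per 10000 in members with a single hashtag and 72.1, 82.1, 88.7 and 73.8 in those with 2. The alveolar fibroblast list stood at 31.6, 33, 35.9 and 26.5 and at 27.6, 25, 28 and 24 in that order. Pericyte genes stood at 0.993, 1.88, 3.10 and 5.44 with a single hashtag and at 3.53, 5.70, 4.98 and 6.19 with 2. By the margin rule the order was the opposite in each library, with 2.80, 3.68, 3.85 and 6.48 for a single hashtag and 0.206, 0, 3.62 and 0.870 for 2 (8, 2, 65 and 10 barcodes). Scrublet, which scores each barcode against simulated sums of 2 barcodes, called 8.13, 10.8, 2.11 and 11.6% of members doublets, 2.46 to 4.92% of endothelial and 2.14 to 5.30% of fibroblast barcodes alone. The library with most members had the lowest called share and the lowest median score in members (0.108, 0.121, 0.0497 and 0.132). Scrublet was run within each library, where members were 3.97, 1.51, 21.1 and 1.88% of barcodes. The part of that share in the scores was not tested, so the scores do not rank the libraries.

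The share of members was compared between groups over the 3 mice of each library, with barcodes of a single hashtag by HTODemux. In LAIR1KO normal lung HTODemux gave no hashtag to 62.1% of fibroblast barcodes alone and to 1.99% of members. It assigned 648 barcodes to mouse 1 there (13 fibroblast alone), and the margin rule 1601 (128 fibroblast alone). The shares per mouse thus depend on the calls. The 3 mice of LAIR1KO normal lung had 36.0, 21.9 and 23.5% members and those of WT normal lung 3.69, 3.13 and 2.88%, groups that did not overlap. The means were 27.1% ± 7.67 and 3.23% ± 0.416 (SD, n = 3), a log2 difference of 3.06 ± 0.48 (SE) that passed edgeR's quasi-likelihood test over the 5 classes of barcodes (adjusted p = 4.93e-05). In tumor-bearing lung the mice had 0.967, 2.25 and 1.17% in LAIR1KO and 1.96, 2.36 and 1.32% in WT, which overlapped (log2 -0.40 ± 0.50, adjusted p = 0.987, edgeR). Tumor-bearing and normal lung differed by -4.23 ± 0.52 in LAIR1KO (adjusted p = 1.93e-06) and by -0.77 ± 0.48 in WT, where the test was not passed (adjusted p = 0.656, edgeR). The genotype difference in normal lung (log2) exceeded that in tumor-bearing lung by 3.46 ± 0.69 (adjusted p = 6.08e-04, edgeR). Exact permutation of 3 against 3 mice gave p = 0.1, the smallest possible, for each contrast except that between genotypes in tumor-bearing lung (p = 0.4).

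The mice of a group shared a library, so these p-values measure the spread between mice of 1 library, and how that library was made cannot be told apart from the genotype or the tumor. WT normal mice were also the only males. By the margin rule the fall from normal to tumor-bearing WT lung passed the test (4.43% ± 0.160 to 1.73% ± 0.700, n = 3; log2 -1.32, adjusted p = 0.00405, edgeR). Under that rule the share in LAIR1KO normal mice was 22.5, 21.1 and 26.6%. The LAIR1KO normal mice differed in what was left outside the set. Members were 39.3% of barcodes passing the endothelial part in mouse 1, 72.3% in mouse 2 and 80.1% in mouse 3, and mouse 1 held 299 endothelial barcodes alone, against 34 and 23. In the other 3 libraries members were 12.3 to 29.8% of those barcodes in each mouse. Of barcodes passing the fibroblast part they were 68.6, 60.2 and 67.3% in the LAIR1KO normal mice and 4.46 to 15.1% in the others.

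**Figure D5:**
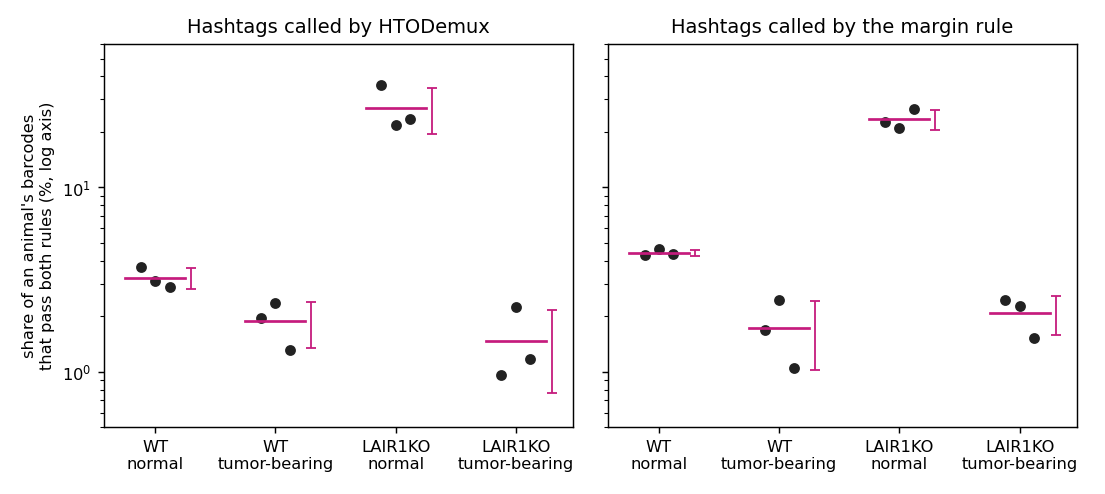
Share of each mouse's barcodes that pass both rules (log axis), with hashtags called by HTODemux (left) and by the margin rule (right). Points are the 3 mice of a library, horizontal lines the means and bars at the side 1 SD; the LAIR1KO normal mice lie at 21.1 to 36.0% and all others below 5%.

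One member held RNA of the tumor. In LAIR1KO tumor-bearing lung 1 of 86 members held 978 UMIs of the melanoma genes Pmel, Mlana, Tyr, Tyrp1, Dct and Sox10 among its 78915 UMIs, with a single hashtag by both rules, and the other 85 held 0. Members of the other libraries held at most 1 such UMI each. This barcode made up 40.8% of the UMIs of members with a single hashtag in mouse 3. Without it the lists moved little, with the endothelial list at 80.4 in place of 75.7 UMIs per 10000, the pericyte list at 5.30 in place of 5.85 and the type 1 list at 15.2 in place of 14.3, while tests of genes depended on it as given below.

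Gene levels within the set were compared over mice with at least 10 members (3, 2, 3 and 2 mice; 1 of each tumor-bearing group was left out of the fit). Few genes passed. Between genotypes in normal lung 3 of 4892 genes were called (0.0613%; edgeR, adjusted p under 0.05), of which 2 were higher in LAIR1KO (0.0409%) and 1 lower (0.0204%), and 252 had an unadjusted p under 0.05 (5.15%). The 3 were Xist, Ddx3y and Scgb1a1. Xist and Ddx3y, chosen here after their values were seen, follow the sexes of the libraries. They were also the calls between tumor-bearing and normal WT lung (2 genes, 0.0409%, 1 in each direction, 0.0204% each; 251 genes or 5.13% unadjusted). Xist was the single call (0.0204%) in the test of whether the genotype difference was unlike in normal and tumor-bearing lung.

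Scgb1a1, the secretoglobin of airway club cells, stood at 48.3, 42.3 and 55.4 CPM (counts scaled to a fixed total per mouse) in WT and 118, 147 and 138 in LAIR1KO normal mice, groups that did not overlap. Its log2 difference was 1.47 ± 0.24 (SE; adjusted p = 0.0329, edgeR). The call ended without any 1 of the 6 mice (log2 1.38 to 1.55, adjusted p 0.0606 to 0.460, edgeR) and with hashtags by the margin rule (log2 1.03, adjusted p = 0.0839). Scgb1a1 is not a gene of either lineage. It stood at 1.19 UMIs per 10000 in LAIR1KO normal members and at 1.72 in macrophage or neutrophil barcodes of that library, against 0.670 and 0.807 in WT normal lung. These levels cover all members, while the test used those with a single hashtag. The part of free RNA in the call was not tested.

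Between genotypes in tumor-bearing lung edgeR called 0 of 4892 genes (0%; 511 or 10.4% at an unadjusted p under 0.05), and DESeq2 called 96. Between tumor-bearing and normal LAIR1KO lung 2 genes were called (0.0409%; 688 or 14.1% unadjusted), both higher in tumor-bearing lung. Hspd1, the mitochondrial chaperonin HSP60, stood at 651 and 721 CPM in the 2 tumor-bearing mice and at 283, 245 and 237 in the 3 normal mice (log2 1.43 ± 0.21 SE, adjusted p = 0.0187, edgeR). Without the barcode rich in melanoma RNA, which lies in 1 of those 2 mice, the difference was 1.02 and the call ended (adjusted p = 0.388, edgeR). It also ended without any 1 of the 3 normal mice or without tumor-bearing mouse 3 (log2 1.35 to 1.5, adjusted p 0.0501 to 0.209). The other call, the gene model Gm47283 (named after its values were seen), stood at 292 ± 18.3 against 99.2 ± 16.9 CPM (SD, n = 2 and 3; adjusted p = 0.0187, edgeR) and was kept without that barcode. It also ended without any 1 of the 3 normal mice, where 0 genes were called higher in tumor-bearing lung.

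By the margin rule, with 3 tumor-bearing mice in the fit, 26 genes were called between tumor-bearing and normal LAIR1KO lung, and 15 of them were called again without the barcode rich in melanoma RNA. Immune genes were among those 15 (Ptprc, Laptm5, Ctss and Cybb, named after their values were seen). Ptprc, the leukocyte protein CD45, had 72.4 ± 1.5 CPM in tumor-bearing and 14.8 ± 6.02 in normal mice (SD, n = 3). Lower in tumor-bearing lung was Nr2f2, a nuclear receptor of veins and mesenchyme, at 132 ± 29.1 against 252 ± 10.5 CPM. The macrophage or neutrophil rule was passed by 3 and 4 of the 86 members there and by 8 and 14 of the 804 in LAIR1KO normal lung, and the part of such barcodes in these calls was not tested.

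With hashtags by HTODemux, none of the listed endothelial, capillary, fibroblast, matrix or pericyte genes tested passed in any of the 4 contrasts by edgeR. Between genotypes in normal lung the 18 endothelial genes had a median log2 difference of -0.07, the 11 tested alveolar fibroblast genes 0.21 (genes of the rule left out of both) and the 14 matrix genes -0.23, beside -0.01 over all genes. The 9 tested genes of the activated fibroblast list had a median of -1.36, with 0 of 9 called. Between tumor-bearing and normal LAIR1KO lung the medians were -0.06, -0.48 and -0.14 for the first 3 lists and 0.11 for the activated fibroblast list, beside 0.01 over all genes.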

How the data were processed

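The authors deposited, per library, counts (UMIs per feature and barcode) for 32285 genes and 3 hashtag antibodies, as whole numbers with no normalization. The submitters' processing notes name Cell Ranger 4.0.0, STAR, R 4.0.0, Seurat 3.2.0 and mm10. The members and gene lists were chosen with earlier results of these data known. Levels are UMIs of a class summed over its barcodes per 10000 UMIs, which understates genes when another lineage adds RNA. Hashtags were called on all deposited barcodes with HTODemux (Seurat 5.3.0, R 4.3.3, quantile 0.99), and a margin rule and HTODemux with k-means were alternatives. Scrublet (scanpy 1.11.5, Python 3.11.15, expected rate 0.06) marked doublets, which stayed in. Shares and genes were tested with edgeR 4.0.16 on counts summed per mouse (TMM, filterByExpr, Benjamini-Hochberg over all genes or classes, threshold 0.05, all groups in 1 fit), with DESeq2 1.42.0 as alternative. Both tests were tested on simulated data. Genes named across conditions passed the threshold, changed at least 1.5-fold, reached 20 CPM in the higher group and did not overlap, without sex-linked genes and gene models. Genes named against both lineages were the 10 highest and 10 lowest by the least favourable library. Barcodes in the other mixes of rule genes entered no comparison of levels. Added lists (type 1 epithelium, pericytes) and melanoma-rich barcodes are described only. No pairing check was made, since hashtag numbers mark no shared origin across libraries.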

Additional observations from a re-analysis of the deposited data

Results flagged for a closer look

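The difference between genotypes in the share of barcodes with both lineages was not alike in normal and tumor-bearing lung, by a test of that difference itself. LAIR1KO differed from WT by a log2 value of 3.06 without tumor and of -0.40 with tumor, a gap of 3.46 ± 0.69 (SE; 12 mice, adjusted p = 6.08e-04, edgeR). In each of 18 alternatives the gap stayed positive and past the threshold (2.17 to 3.87). The high value rests on the 3 mice of the LAIR1KO normal library, and the part of that library's preparation was not tested.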

How the results depend on the processing

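Of 217 recomputed values for 24 results, 152 kept their direction and their side of the threshold or size. HTODemux with k-means and leaving out Scrublet doublets or barcodes with 3 or more melanoma UMIs were chosen after seeing the data. The share contrasts of LAIR1KO against WT in normal lung (2.38 to 3.39) and of tumor-bearing against normal in LAIR1KO (-4.88 to -3.40) kept their calls in every alternative run. No paired analysis was possible because hashtag numbers mark no shared origin across libraries.

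The 2-hashtag share of members minus endothelial barcodes was near 0 with the margin rule (-0.0313 points, SD 3.42). It was -1.99 (SD 11.7) within 5000 to 20000 UMIs. The share of hashtag UMIs outside the top turned to -0.0602 within 5000 to 20000 UMIs, and ranged from -0.503 (without LAIR1KO tumor-bearing lung) to 1.03 when 1 library was left out. With the margin rule the log2 share difference between genotypes in tumor-bearing lung turned to 0.23, and that between tumor-bearing and normal WT lung passed at -1.32. The causes were not tested.

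Stricter thresholds for the 5 genes lowered the shares of members to 2.77, 1.002, 17.4 and 1.40%, and thinning to 3000 UMIs gave 2.53, 1.14, 18.5 and 1.25%. Thinning also lowered the ratio of observed to product of shares to 0.464, 0.379, 1.16 and 0.357. The median log2 ratio of a gene's level in members to the mean of both lineages was 0.03, which scaling to a common total holds near 0, and -0.0016 in members with 2 hashtags. In UMIs per barcode against the sum of both lineages it averaged -0.048, with libraries at -0.14, -0.09, -0.39 and 0.43.

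Counts of called genes depended most on the processing. In the order LAIR1KO against WT in normal and in tumor-bearing lung, then tumor-bearing against normal in WT and in LAIR1KO, they were 15, 113, 7 and 292 without a filter on low counts, against 3, 0, 2 and 2. DESeq2 called 6 genes in normal lung, 96 in tumor-bearing lung and 117 between tumor-bearing and normal LAIR1KO lung. Fitting only the groups compared gave 6 in normal lung and 21 in LAIR1KO. In LAIR1KO the margin rule gave 26, k-means 12, and leaving out melanoma-rich barcodes 1, or 16 with the margin rule, where normal lung had 7. In WT, stricter thresholds and leaving out Scrublet doublets gave 1 each. Leaving out 1 mouse gave 2 to 4, 0 to 232, 1 to 1, and 0 to 424. The values 232 and 424 came without LAIR1KO tumor-bearing mouse 2, which leaves mouse 3 alone, assumed to vary like the other groups. At least 20 members per mouse, and stricter thresholds for tumor-bearing LAIR1KO lung, left too few mice for a fit.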
